A study of Homo sapiens with 6 samples.

Results

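A set of 10 genes that mark or drive the epithelial to mesenchymal transition were followed in WT and PARP3-/- LN229 cells: the transcription factors SNAI1, SNAI2, TWIST1, ZEB1 and ZEB2, the cadherins CDH1, CDH2 and CDH11, the intermediate filament gene VIM and the matrix gene FN1. They were chosen by name, all 10 are among the 33841 genes of the count table, and 9 had enough counts to be tested. CDH1 was the exception. SNAI2 rose 1.95-fold in the PARP3-/- cells (adjusted p = 0.0211, edgeR without pairing of libraries), where 1.36% of all tested genes were called higher. This call was kept in 2 of the 6 fits that left out a single library. CDH11 was lower and FN1 higher in each PARP3-/- library than in any WT library, as were 12% and 10.8% of all tested genes, respectively. Neither passed edgeR without pairing of libraries (adjusted p = 0.174 and 0.118). Both were called when libraries were compared within replicate number, where 12.5% of all tested genes were lower and 11.8% higher. SNAI1, TWIST1, ZEB1, ZEB2, CDH2 and VIM did not pass either edgeR test.

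LN229 is an established human glioblastoma cell line, and the study asked how loss of the ADP-ribosyltransferase PARP3 alters its transcriptome. The labels give WT-PARP3+/+ cells and PARP3KO_LN229 cells, with 3 replicates each described as biological, all proliferating in the same serum-supplemented medium. PARP3 was disrupted with CRISPR, using a nickase Cas9 and paired guides, after which single colonies were picked. The series text gives exon 2 to exon 9 as disrupted, while the study's methods place the second pair of guides in an exon before exon 9. The sources used here do not name which colony was sequenced, or whether the 3 PARP3-/- libraries share a colony. In this design the effects of genotype and of growth from single colonies cannot be told apart. Total RNA was depleted of ribosomal RNA and sequenced from strand-specific libraries, although the labels name polyA RNA as the molecule.

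In the epithelial to mesenchymal transition, cells lose E-cadherin junctions, loosen from their neighbours and acquire a motile, matrix-producing state. SNAI and ZEB zinc finger proteins and TWIST helix-loop-helix proteins are known to repress CDH1 and other epithelial genes through E-boxes, short DNA motifs of the form CANNTG, while N-cadherin, vimentin and fibronectin accumulate. Glial cells are not a classical epithelium and usually carry N-cadherin and vimentin already, so in glioblastoma the same factors are mostly studied for invasion and for mesenchymal-like states. PARP3 itself has been described as a promoter of this transition in epithelial cancer cells.

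RefSeq promoter windows on GRCh38.p14 matched 5 of the 10 genes by symbol (ZEB1, ZEB2, CDH2, VIM and FN1), with 12 windows in all, since ZEB1 has 7 annotated starts. SNAI1, SNAI2, TWIST1, CDH1 and CDH11 were not matched. Windows are shown for the most upstream start of ZEB1, a transition factor that itself binds E-boxes, and for VIM and FN1, the mesenchymal products with the highest levels per transcript length. Each runs 5′ to 3′ on the strand of its gene up to the annotated start, or for FN1 up to the gene model used for the counts. Capitals mark any CANNTG and the palindrome TGACGTCA, a cyclic AMP response element that was added to the search after the FN1 sequence had been seen.
ZEB1, chr10:31318167-31318416, plus strand: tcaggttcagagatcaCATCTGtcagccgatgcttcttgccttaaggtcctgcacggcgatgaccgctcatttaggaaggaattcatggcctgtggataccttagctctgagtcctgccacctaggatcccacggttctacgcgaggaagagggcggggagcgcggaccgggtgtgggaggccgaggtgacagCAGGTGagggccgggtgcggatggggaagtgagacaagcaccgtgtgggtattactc
VIM, chr10:17227991-17228240, plus strand: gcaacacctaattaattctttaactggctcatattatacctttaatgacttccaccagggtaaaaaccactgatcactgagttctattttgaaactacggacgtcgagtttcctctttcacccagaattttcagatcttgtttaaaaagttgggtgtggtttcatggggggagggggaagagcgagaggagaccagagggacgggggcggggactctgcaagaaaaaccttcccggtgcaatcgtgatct
FN1, chr2:215436173-215436318, minus strand: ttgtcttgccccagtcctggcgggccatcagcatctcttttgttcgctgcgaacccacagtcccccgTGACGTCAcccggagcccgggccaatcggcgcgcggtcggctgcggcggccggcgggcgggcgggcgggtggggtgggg
The ZEB1 window shown holds CATCTG, which begins 234 bases before this start, and CAGGTG, which begins 57 bases before it. Of the 7 ZEB1 windows, 2 hold CAGGTG or CACCTG and 4 hold any CANNTG. Neither the VIM nor the FN1 window holds a CANNTG. The FN1 window holds TGACGTCA, beginning 183 bases before the annotated RefSeq start. That start lies beyond the stretch printed, as the full FN1 window runs on to position 215436069. Over all 35116 windows of 250 bases in the RefSeq table, CAGGTG or its reverse complement CACCTG occurred in 17.5%, any CANNTG (which includes both) in 61.8% and TGACGTCA in 1.65%. These are matches of letters only, and binding was not measured here.

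The 6 libraries held 29692065 to 46010369 counts on genes, so that the detection limit used here, 3 counts, corresponds to 0.0673 to 0.0996 CPM (counts scaled to the normalized library size). The limit covers counting error only. The libraries numbered 1 stood apart in both genotypes. Their counts differed from those of the other libraries of their genotype by a chi-square of 48.7 to 93.7 per degree of freedom, against 10.9 between WT libraries 2 and 3 and 3.80 between PARP3-/- libraries 2 and 3. Fits without both of them are therefore also given below for SNAI2, TWIST1, CDH11, VIM and FN1. SNAI1, ZEB1, ZEB2 and CDH2 were not called in that fit (adjusted p from 0.294 to 0.736, edgeR). PARP3 was at 34.9, 22.4 and 24.3 CPM in WT and at 19.1, 22.5 and 19.5 CPM in PARP3-/- libraries, a log2 difference of -0.42 (SE 0.18, adjusted p = 0.307, edgeR). With the replicate block described below for the other genes it was called lower (-0.39, SE 0.13, adjusted p = 0.0469). The genotypes overlapped at this gene. Its count covers the whole gene, and loss of the disrupted exons was not tested. Genotypes are given here as labelled. Of the glioma and astroglial markers, GFAP, AQP4 and ALDH1L1 were under the filter on low counts, and NES, the neural progenitor filament gene nestin, was at 927 ± 177 CPM in WT and 895 ± 170 CPM in PARP3-/- cells (SD, n = 3). The 8 blood and endothelial markers in the table stayed under 1 CPM each and summed to 0.834 to 1.78 CPM in WT and 1.01 to 1.63 CPM in PARP3-/- libraries.

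Over the 17144 genes tested with edgeR and Benjamini-Hochberg adjustment over all of them, 3.33% were called lower and 1.36% higher in PARP3-/- cells at an adjusted p under 0.05. Among the 9 tested transition genes, 0 were lower and 1 was higher, with 8 not called (1 lower and 2 higher at an unadjusted p under 0.05), and their median log2 fold change was 0.10, against -0.0062 over all genes tested. With the replicate number as a block, which compares each PARP3-/- library with the WT library of the same number, 12.5% of all genes were lower and 11.8% higher, and of the 9 genes CDH11 was lower and SNAI2 and FN1 were higher. DESeq2 called the same 3 of the 9 in the same directions, beside 3.84% lower and 2.09% higher of the 22686 genes it adjusted. Genes whose 3 PARP3-/- libraries all lay beyond all 3 WT libraries made up 12% (lower) and 10.8% (higher) of those tested, and CDH11, and SNAI2 and FN1, respectively, were among them. A count of 1 or 2 among 9 genes is not read as a result about the group, and each gene is described by its own values.

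**Figure D1:**
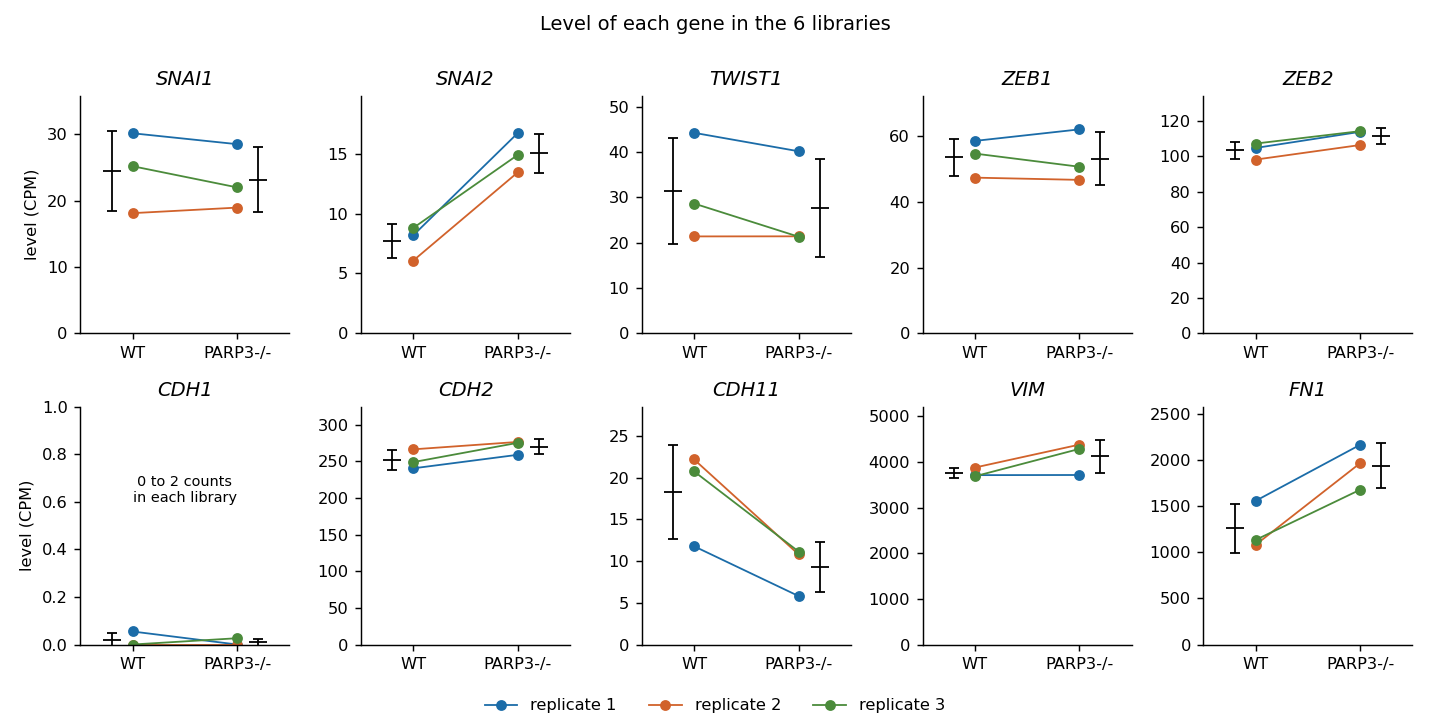
Level of each of the 10 genes, in CPM on a linear axis from 0, in WT and PARP3-/- libraries. Points are libraries, lines join libraries of the same replicate number, and bars give the mean and SD of 3 libraries. All 3 lines climb for SNAI2, ZEB2, CDH2, FN1 and, barely in pair 1, VIM, all 3 descend for CDH11, and CDH1 stays at 0 to 2 counts.

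SNAI2 encodes Slug, a zinc finger repressor of E-cadherin that is also needed by migrating neural crest cells (ENSG00000019549, chromosome 8, 48917768 to 48921740, protein coding, as are all 10 genes, with positions on hg38). It was at 8.19, 6.08 and 8.80 CPM in the WT libraries and at 16.7, 13.4 and 14.9 CPM in the PARP3-/- libraries, from 255 to 361 and from 504 to 599 counts. The lowest PARP3-/- library was above the highest WT library. The means were 7.69 ± 1.43 and 15.0 ± 1.64 CPM (SD, n = 3), and the log2 fold change was 0.97 (SE 0.16, adjusted p = 0.0211, edgeR). Within replicate numbers the PARP3-/- library was 2.04-, 2.21- and 1.69-fold higher. The block gave 0.97 (SE 0.091, adjusted p = 2.88e-05), and without both libraries numbered 1 the fit without a block gave 0.93 (adjusted p = 0.00250). The call depended on single libraries and was lost without WT library 3 (adjusted p = 0.0570) or without PARP3-/- library 1, 2 or 3 (adjusted p = 0.0516, 0.0601 and 0.0921), while the log2 fold change stayed between 0.82 and 1.07.

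SNAI1, the Snail repressor and closest relative of SNAI2 here (ENSG00000124216, chromosome 20, 49982999 to 49988886), was at 30.2, 18.1 and 25.2 CPM in WT and at 28.5, 18.9 and 22.0 CPM in PARP3-/- libraries. The genotypes overlapped, and in both the library numbered 1 was the highest and the library numbered 2 the lowest. Its log2 difference was -0.08 (SE 0.22, adjusted p = 0.930) and changed sign with the library left out, from -0.26 to 0.09. With the block it was -0.07 (SE 0.067, adjusted p = 0.490).

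TWIST1, a helix-loop-helix factor of mesoderm and neural crest (ENSG00000122691, chromosome 7, 19020991 to 19117672), varied most within a genotype among the transition factors. It was at 44.2, 21.4 and 28.6 CPM in WT and at 40.2, 21.4 and 21.3 CPM in PARP3-/- libraries. Both libraries numbered 1 exceeded every other library. The log2 difference was -0.19 (SE 0.34, adjusted p = 0.883), and with the block -0.19 (SE 0.078, adjusted p = 0.110). Its sign also changed on leaving out single libraries, from -0.55 to 0.14. Without both libraries numbered 1 it was -0.23 (adjusted p = 0.226).

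The ZEB genes encode large zinc finger and homeodomain repressors that bind paired E-boxes. ZEB1 (ENSG00000148516, chromosome 10, 31318495 to 31529814) was at 58.6, 47.4 and 54.7 CPM in WT and at 62.1, 46.7 and 50.7 CPM in PARP3-/- libraries. The genotypes overlapped, with a log2 difference of -0.01 (SE 0.13, adjusted p = 0.985), which ran from -0.14 to 0.07 as single libraries were left out. ZEB2 (ENSG00000169554, chromosome 2, 144364364 to 144524583) was at 104.8, 98.2 and 107.2 CPM in WT and at 113.9, 106.4 and 114.3 CPM in PARP3-/- libraries. Each PARP3-/- library exceeded the WT library of its own number, by 0.12, 0.12 and 0.09 on the log2 scale, but the lowest PARP3-/- library lay under the highest WT library. The log2 difference of 0.11 (SE 0.074, adjusted p = 0.572) was not called, nor was that with the block (0.11, SE 0.047, adjusted p = 0.119).

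CDH1, which encodes E-cadherin, the junction protein of epithelia and the classical target of the 5 factors (ENSG00000039068, chromosome 16, 68737225 to 68835548), was counted 2, 0 and 0 times in the WT libraries and 0, 0 and 1 times in the PARP3-/- libraries. All 6 libraries were under the limit of 3 counts, so a fall of CDH1 was not detectable at this depth, and a rise past this limit was not seen in any PARP3-/- library.

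CDH2, the gene of N-cadherin, which holds neural and mesenchymal cells together (ENSG00000170558, chromosome 18, 27950966 to 28177446), was at 240.4, 266.4 and 248.9 CPM in WT and at 258.9, 276.5 and 275.3 CPM in PARP3-/- libraries. PARP3-/- libraries were higher within each number, by 0.11, 0.05 and 0.14 on the log2 scale, and the genotypes overlapped. The log2 difference was 0.10 (SE 0.080, adjusted p = 0.649), and with the block 0.10 (SE 0.050, adjusted p = 0.178).

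CDH11, the gene of osteoblast cadherin, a type II cadherin of mesenchymal cells (ENSG00000140937, chromosome 16, 64943753 to 65126112), was at 11.8, 22.2 and 20.8 CPM in WT and at 5.81, 10.8 and 11.1 CPM in PARP3-/- libraries. Both libraries numbered 1 were the lowest of their genotype, and the WT library numbered 1 lay only just above the highest PARP3-/- library. The means were 18.2 ± 5.64 and 9.25 ± 2.99 CPM (SD, n = 3). The log2 difference was -0.97 (SE 0.32, adjusted p = 0.174) and was not called. Within replicate numbers the PARP3-/- library was 2.03-, 2.05- and 1.86-fold lower. CDH11 accordingly fell in the block (-0.98, SE 0.075, adjusted p = 6.33e-06). The fit without both libraries numbered 1 gave -0.97 (adjusted p = 3.98e-05), and DESeq2 on all libraries gave an adjusted p of 0.0424. With single libraries left out and no block it was between -1.21 and -0.73, with adjusted p from 0.0502 to 0.462.

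VIM, the gene of the mesenchymal and glial intermediate filament vimentin (ENSG00000026025, chromosome 10, 17228259 to 17237593), was at 3713, 3880 and 3688 CPM in WT and at 3716, 4382 and 4289 CPM in PARP3-/- libraries. PARP3-/- libraries 2 and 3 were above all WT libraries, and PARP3-/- library 1 was among them. The log2 difference was 0.14 (SE 0.12, adjusted p = 0.700), and with the block 0.13 (SE 0.072, adjusted p = 0.223). Without both libraries numbered 1 it was 0.19 (adjusted p = 0.129).

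FN1 encodes fibronectin, the matrix glycoprotein that cells bind through integrins and assemble into fibrils (ENSG00000115414, chromosome 2, 215360440 to 215436172). It was at 1555, 1080 and 1133 CPM in WT and at 2162, 1963 and 1676 CPM in PARP3-/- libraries. The genotypes did not overlap, and the WT library numbered 1 came closest to the PARP3-/- libraries. The means were 1256 ± 261 and 1933 ± 244 CPM (SD, n = 3), and the log2 difference of 0.62 (SE 0.18, adjusted p = 0.118) was not called without a block. Within replicate numbers the PARP3-/- library was 1.39-, 1.82- and 1.48-fold higher. FN1 rose in the block (0.63, SE 0.078, adjusted p = 0.000203). It was also called by DESeq2 (adjusted p = 0.0114), without both libraries numbered 1 (0.71, adjusted p = 0.000390) and without WT library 1 alone (0.80, adjusted p = 0.0248). Leaving out any other single library gave adjusted p values from 0.198 to 0.381.

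**Figure D2:**
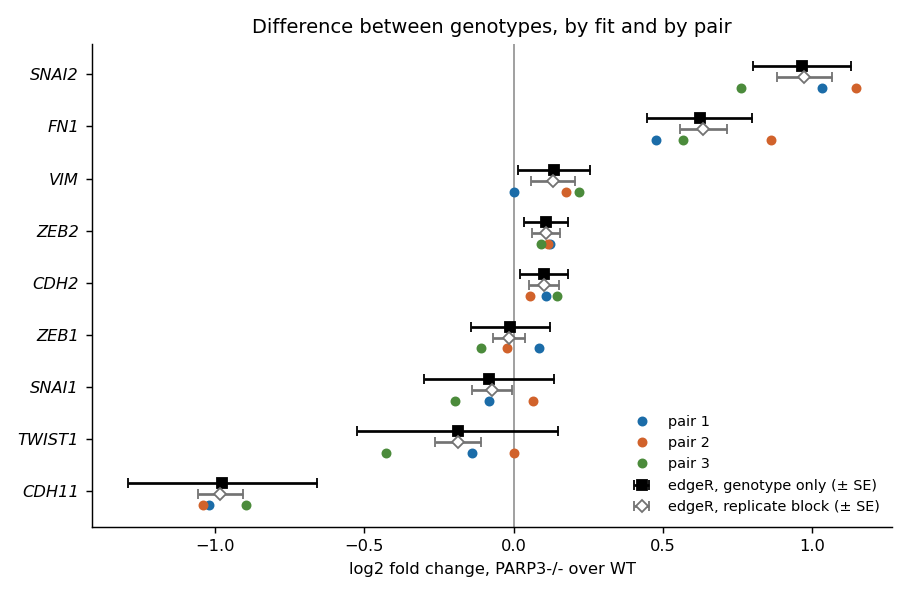
Log2 fold change of PARP3-/- over WT for the 9 tested genes. Black squares are the edgeR fit with genotype only and open diamonds the fit with the replicate block, both with SE bars, and coloured points are the ratios of the 3 same-numbered pairs. Estimates of the fits nearly coincide, the bars of the block are shorter for all 9 genes, and the 3 pairs lie on the same side of 0 for SNAI2, FN1, VIM, ZEB2, CDH2 and CDH11.

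Levels can be compared between genes only per transcript length. With the median transcript length given in the count table, the order was the same in both genotypes: VIM (3579 ± 99.2 CPM per kilobase in WT and 3931 ± 343 in PARP3-/- cells), FN1 (525.9 ± 109 and 809.7 ± 102), CDH2 (340.4 ± 17.9 and 365.1 ± 13.2), TWIST1, ZEB2, ZEB1, CDH11, SNAI1, SNAI2 and CDH1. The leading 3 did not overlap with each other or with the rest. In WT cells TWIST1 (36.3 to 75.1 CPM per kilobase), ZEB2 (38.3 to 41.8), ZEB1 (34.3 to 42.4) and CDH11 (20.7 to 39.0) overlapped in a chain. SNAI1 (10.7 to 17.9) lay above SNAI2 (4.61 to 6.68) in WT cells. In PARP3-/- cells their ranges met (11.2 to 16.9 and 10.2 to 12.7), although SNAI1 was the higher of the pair within each library. The lower part of the order depended on the length used. With the longest GENCODE 44 transcript, which is 1.01 (SNAI1) to 12.1 (CDH11) times longer, SNAI1 moved from rank 8 to rank 5 and CDH11 from rank 7 to rank 9, and the ranges of SNAI1 (11.1 to 16.7) and SNAI2 (4.75 to 5.92) in PARP3-/- cells no longer met.

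**Figure D3:**
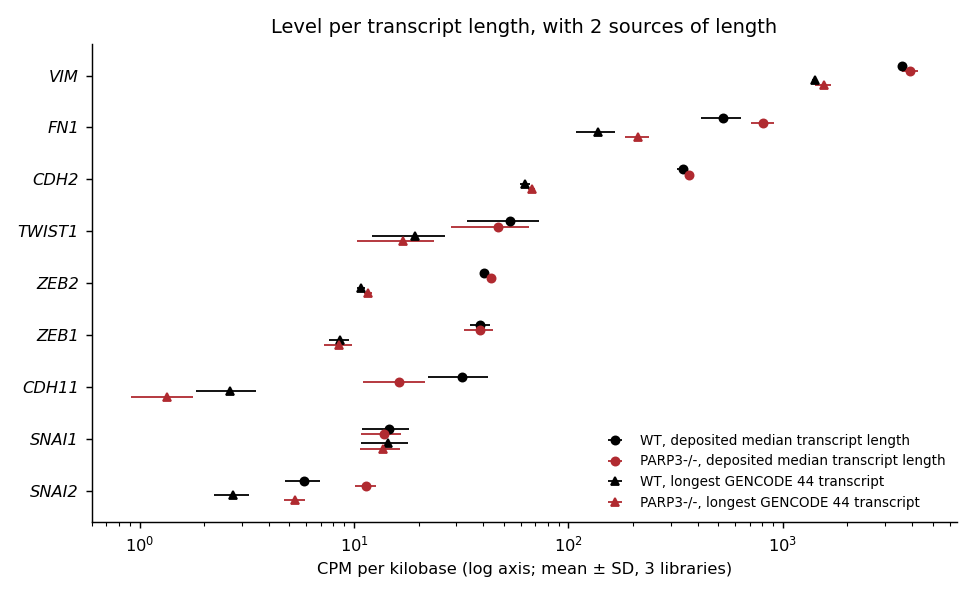
Level per transcript length of 9 genes (CPM per kilobase, log axis, mean and SD of 3 libraries) in WT (black) and PARP3-/- cells (red), with circles for the median length in the count table and triangles for the longest GENCODE 44 transcript. VIM, FN1 and CDH2 lead with both lengths, and SNAI2 and CDH11 are the genes whose genotypes stand furthest apart.

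Over all tested genes, edgeR without a block called 3.33% lower and 1.36% higher, and the block 12.5% and 11.8%. DESeq2 called 3.84% and 2.09% of the genes it adjusted. Counts over the lists that follow stand beside these shares, beginning with other factors of the transition. Of 20 listed, all were in the table and 16 were tested, with 2 lower, 0 higher and 14 not called by edgeR without a block, and a median log2 fold change of 0.02. TBX3, a T-box repressor of CDH1, fell from 61.2 ± 3.52 to 41.6 ± 2.09 CPM (log2 fold change -0.56, SE 0.080, adjusted p = 0.0107). ID2, an inhibitor that keeps helix-loop-helix factors from DNA, fell from 5.42 ± 0.787 to 2.85 ± 0.263 CPM (-0.93, SE 0.16, adjusted p = 0.0230). With the block 3 were lower and 3 higher, and with DESeq2 2 and 1. TBX2, another T-box gene of the list, named after its values were seen, went the other way from TBX3. It was at 96.6 ± 19.1 CPM in WT and 141.0 ± 14.1 CPM in PARP3-/- cells. Its adjusted p was 0.123 by edgeR without a block, 0.00108 with the block and 0.0415 by DESeq2. Of the proteins through which the SNAI and ZEB repressors are known to act, 18 were listed and tested and 0 were called in either direction by edgeR without a block, with a median of 0.06. SIN3A, the scaffold of a histone deacetylase complex, was at 58.7 ± 5.08 and 76.4 ± 2.67 CPM (0.38, SE 0.087, adjusted p = 0.0600), and AJUBA, a LIM protein that binds SNAI1, at 106.9 ± 18.3 and 132.9 ± 13.7 CPM (0.31, SE 0.14, adjusted p = 0.336). The block called 3 of the 18 higher and DESeq2 1, and 1 was higher at an unadjusted p under 0.05. EHMT2, the gene of the methyltransferase G9a, named here after its values were seen because G9a is at the centre of the study, was at 117.9 ± 4.27 and 123.3 ± 0.800 CPM (adjusted p = 0.762).

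Of 24 other cadherins, 21 were in the table, 11 were tested and 0 were called by edgeR without a block, with a median log2 fold change of 0.24. The genes of smallest p were CDH19, a cadherin of neural crest and Schwann cell precursors, at 187.0 ± 30.4 CPM in WT and 131.0 ± 6.28 CPM in PARP3-/- cells (-0.51, SE 0.12, adjusted p = 0.0750), and CDH7, at 1.17 ± 0.449 and 0.515 ± 0.191 CPM (-1.16, SE 0.39, adjusted p = 0.194). All 3 PARP3-/- libraries lay under all 3 WT libraries for both, as for CDH11 and for 12% of all tested genes. Of the 11 tested cadherins, 3 lay the other way without overlap, as did 10.8% of all tested genes. The block called 2 lower, CDH19 and CDH7, and 3 higher, and DESeq2 called CDH19 lower. At an unadjusted p under 0.05 edgeR gave 2 lower and 1 higher. Of 13 catenins and cadherin partners, 9 were tested, and edgeR without a block called 0 lower and 1 higher. AFDN, the gene of afadin, which ties nectins at cell junctions to actin, rose from 46.3 ± 4.04 to 70.6 ± 3.96 CPM (0.61, SE 0.091, adjusted p = 0.0127). Of these 9, with the block 1 was lower and 2 were higher, and with DESeq2 1 and 1. Beside the near absence of CDH1, some genes of its cytoplasmic partners were present and others had few or no counts. CTNNB1 (beta-catenin) was at 673 ± 112 and 655 ± 77.5 CPM and CTNNA1 (alpha-catenin) at 845 ± 17.0 and 855 ± 21.2 CPM. Of the 12 partners in the table, 3 were under the filter on low counts: CTNNA2, CTNND2 and JUP. CTNND2 was counted 7, 9 and 28 times in WT and 1, 0 and 0 times in PARP3-/- libraries. DESeq2 called it lower (adjusted p = 0.00640), a call not included in the count above. JUP (plakoglobin) was counted 0, 1 and 2 times in WT and 1, 0 and 0 times in PARP3-/- libraries. These genes were chosen after their values were seen.

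Epithelial markers were sparse. Of 31 listed, 29 were in the table and 18 of these did not reach 1 CPM in any library. Of the 15 tested, 3 were lower, 1 was higher and 11 were not called, with a median log2 fold change of -0.0019. CLDN1, a claudin of tight junctions, was counted 24, 21 and 24 times in WT and 2, 2 and 3 times in PARP3-/- libraries (adjusted p = 0.00297). The simple keratins KRT8 (14.6 ± 1.47 to 8.73 ± 0.895 CPM, -0.74, adjusted p = 0.0194) and KRT7 (6.10 ± 1.34 to 2.53 ± 0.601 CPM, -1.26, adjusted p = 0.0323) also fell. LLGL2, a polarity gene of the basolateral membrane, rose from 4.12 ± 0.732 to 8.59 ± 0.863 CPM (1.06, SE 0.17, adjusted p = 0.0163). The summed level of the list was 393.7 to 434.5 CPM in WT and 392.1 to 407.0 CPM in PARP3-/- libraries. With the block 5 were lower and 4 higher, where 12.5% and 11.8% of all tested genes were, and with DESeq2 5 and 2.

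Mesenchymal markers other than the 10 genes moved in both directions. Of 35 listed, 31 were tested, with 2 lower, 3 higher and 26 not called, and a median log2 fold change of 0.23. FBN1, the microfibril gene fibrillin-1, fell from 87.1 ± 6.90 to 52.5 ± 2.28 CPM (-0.73, SE 0.085, adjusted p = 0.00455), and DCN, the collagen-binding proteoglycan decorin, from 11.2 ± 1.32 to 5.40 ± 0.674 CPM (-1.05, SE 0.14, adjusted p = 0.00919). MMP14, a membrane-bound matrix protease, rose from 144.2 ± 9.69 to 217.0 ± 11.1 CPM (0.59, SE 0.086, adjusted p = 0.0116). COL1A2, a chain of type I collagen, rose from 26.8 ± 7.80 to 66.6 ± 21.0 CPM (1.31, SE 0.28, adjusted p = 0.0465). With the block, 4 were lower and 14 higher, where 12.5% and 11.8% of all tested genes were. DESeq2 called 3 lower and 6 higher of these 31. At an unadjusted p under 0.05 edgeR gave 4 lower and 9 higher. THY1, under the filter and named after its values were seen, was also called lower by DESeq2 (adjusted p = 0.0134). It was counted 15, 9 and 13 times in WT and 0, 1 and 1 times in PARP3-/- libraries.

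Around FN1, 14 of 15 genes of fibronectin binding and assembly were tested (FN1 itself among them), with 2 lower, 1 higher and 11 not called, and a median log2 fold change of 0.13. ITGA5, ITGB1, ITGAV and TNC are also in the list of mesenchymal markers and are counted in both. TGM2, a transglutaminase that binds fibronectin and integrins at the cell surface, rose from 420.6 ± 46.6 to 773.5 ± 50.9 CPM (0.88, SE 0.11, adjusted p = 0.00690). FSTL1, a secreted glycoprotein, fell from 99.9 ± 10.8 to 68.2 ± 3.02 CPM (-0.55, SE 0.098, adjusted p = 0.0256). TNS1, which encodes tensin-1 of the fibrillar adhesions, was counted 34, 39 and 35 times in WT and 1, 0 and 0 times in PARP3-/- libraries (adjusted p = 0.00160). ITGA5, the alpha subunit of the main fibronectin receptor, was at 89.7 ± 0.786 and 85.1 ± 3.41 CPM and was not called (adjusted p = 0.707), a gene chosen after its values were seen. With the block 4 of the 14 were lower and 6 higher, where 12.5% and 11.8% of all tested genes were, and with DESeq2 2 and 4.

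Around VIM, 5 of 8 listed filament partners were tested, 0 were called by edgeR without a block and the median log2 fold change was 0.27. SYNM, the gene of synemin, which copolymerizes with vimentin, was at 489.7 ± 30.3 and 589.6 ± 46.0 CPM (0.27, SE 0.099, adjusted p = 0.236), and LMNA, the gene of lamins A and C, at 1404 ± 151 and 1734 ± 230 CPM (0.30, SE 0.14, adjusted p = 0.361). The block called 3 of the 5 higher and DESeq2 0, and 1 was higher at an unadjusted p under 0.05. Among glioma and astroglial markers, a list that also holds VIM, 9 of 12 were tested. NES, GFAP and CD44 are in this list and in lists above. SLC1A3, the glial glutamate transporter gene, rose from 8.02 ± 1.06 to 16.2 ± 0.671 CPM (1.01, adjusted p = 0.00508), and S100B, an astroglial calcium-binding protein gene, fell from 194.2 ± 44.3 to 93.1 ± 13.8 CPM (-1.06, adjusted p = 0.0256). The other 7 were not called by edgeR without a block, and the block called 5 lower and 1 higher and DESeq2 3 and 1. Of 3 tested blood and endothelial markers 0 were called in any fit and 0 had an unadjusted p under 0.05, with VWF at 0.528 ± 0.254 and 0.277 ± 0.0823 CPM and KDR at 0.403 ± 0.197 and 0.553 ± 0.0662 CPM.

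**Figure D4:**
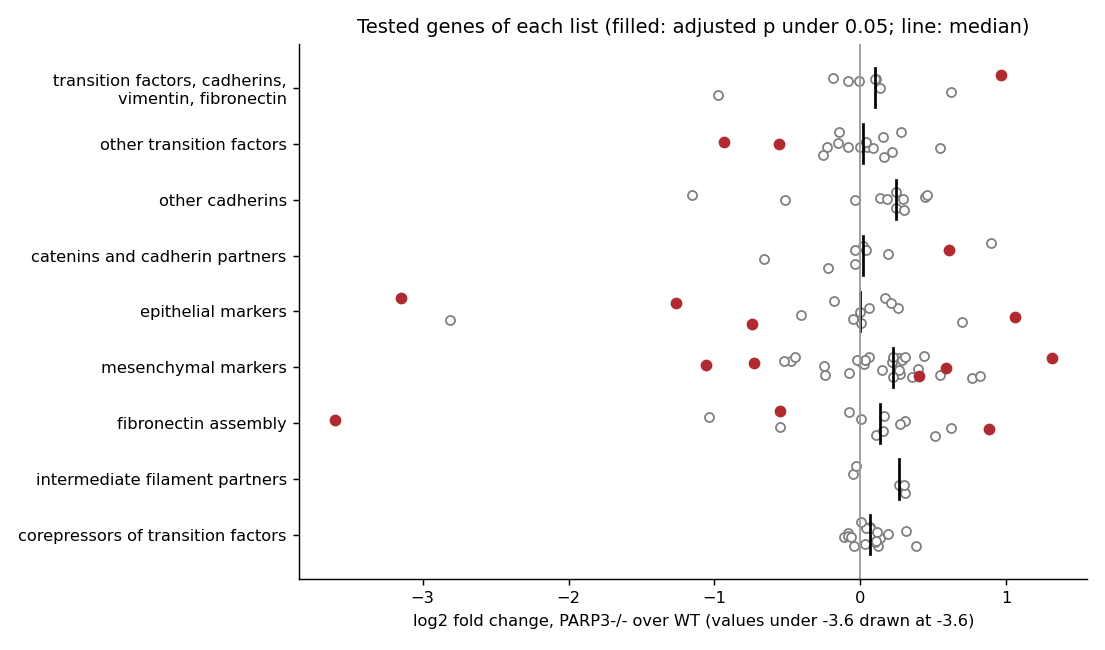
Log2 fold change of PARP3-/- over WT for the tested genes of 9 lists, one point per gene, filled red where the adjusted p of edgeR without a block was under 0.05, with a black line at the median of each list. SNAI2 is the filled point of the uppermost list, and in the lists of mesenchymal markers and fibronectin assembly filled points lie on both sides of 0. TNS1, the leftmost point, lies beyond the axis and is drawn at its limit.

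Within 500 kb, 42 tested neighbours lay around 8 of them and none around SNAI2 or CDH11. Of these 1 was called by edgeR without a block, TEX41 beside ZEB2, higher at a log2 fold change of 1.06, where 1.36% of all genes tested were higher. With the block 3 were lower and 4 higher, where 12.5% and 11.8% of all genes were. The 2 neighbours of FN1, ATIC and ABCA12, had a median of -0.15. Antisense genes overlap ZEB1, ZEB2, CDH2 and VIM, and whether counting used the strand is not stated. They were small beside their partners, with a mean of 139.5 counts for ZEB1-AS1 against 2039 for ZEB1 and of 144.7 for VIM-AS1 against 153134 for VIM. VIM-AS1 was at 4.07 ± 0.317 and 3.47 ± 0.486 CPM (-0.23, adjusted p = 0.556), and SNAI3-AS1, of the same list, at 2.26 ± 1.34 and 1.78 ± 0.708 CPM (-0.35, adjusted p = 0.821). The 3 tested genes of this list were not called in any of the 3 fits, and 0 had an unadjusted p under 0.05.

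For the 3 genes whose genotypes did not overlap, the genes most alike in pattern were sought by Pearson's r of log2 CPM over the 6 libraries, which share depth and replicate number. They were AC007881.3 (r = 0.992) and TENM3 (0.991) for SNAI2, SOX2-OT (0.998) and TMEM2 (0.997) for CDH11, and ATAT1 (0.996) and MEF2A (0.995) for FN1. They are the highest over all tested genes, given as a description, and none of these 6 genes was itself called without a block.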

How the data were processed

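RNA of 3 WT and 3 PARP3-/- LN229 libraries was analysed, grouped by the labels. The authors removed adapters with cutadapt 1.10, removed reads on ribosomal RNA and spike-ins with Bowtie2 2.2.8, aligned the rest to hg38 with STAR 2.5.3a and counted reads per Ensembl 91 gene with HTSeq 0.6.1p1 in union mode. The deposited counts are whole numbers per gene and are not normalized. Union mode leaves out reads on overlapping genes, and whether strand was used is not stated. The 12 further per-sample columns, and the columns of the authors' DESeq2 comparison (log2 ratio, p-value and adjusted p-value), were not used.

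In R 4.3.3, edgeR 4.0.16 was run on all 6 libraries with TMM normalization, filterByExpr (minimum count 10), genotype as the only term and its quasi-likelihood test. Adjustment was by Benjamini-Hochberg over the 17144 genes tested, called at 0.05. Each SE is the log2 fold change over the root of its F value. CPM use TMM-scaled library sizes. Alternatives were DESeq2 1.42.0, other size factors and filters, a stricter threshold, a replicate block and each library left out. Counts of DESeq2 calls over a list cover only its genes that passed filterByExpr. Leaving out both libraries numbered 1, or single pairs within the block, was added after the data were seen. Replicate numbers come from the sample titles. Deviations from the genotype means correlated between same-numbered libraries at r = 0.788, 0.680 and 0.383, so the numbers were taken to pair the libraries. Libraries of different number reached 0.575 (WT 2 with PARP3-/- 3), above the 0.383 of pair 3. The labels call the replicates biological, and the study's text speaks of independent experiments. The scripts were tested on simulated counts.

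The 10 genes and all gene lists were chosen with earlier results of these data known. From each further list, the genes called without a block are named by smallest p, at most 4, or else the 2 of smallest p. Genes named outside this rule are marked as such. Promoter motifs were searched on both strands.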

Additional observations from a re-analysis of the deposited data

How the results depend on the processing

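Over 15 alternatives each, the log2 fold change kept its direction for SNAI2 (0.82 to 1.09, called in 11), FN1 (0.52 to 0.80, called in 8), CDH11 (-1.21 to -0.73, called in 6), ZEB2, CDH2 and VIM, and reversed for SNAI1, TWIST1 and ZEB1 on leaving out single libraries (from -0.26 to 0.0924, from -0.55 to 0.14 and from -0.14 to 0.0750, respectively). ZEB1 was also positive in the block without pair 3 (0.0350). The causes were not tested. Of the 10 genes, 1 was called lower by DESeq2, with the replicate block (also without pair 2 or pair 3) and without both libraries numbered 1, and 2 in the block without pair 1, against 0 in the other fits. DESeq2, no filter on low counts, the replicate block and leaving out both libraries numbered 1 called 2 higher, a stricter threshold (adjusted p under 0.001 and log2 fold change beyond 1) called 0, and leaving out single libraries called 0 to 2. The block changed no call of these genes beyond CDH11 and FN1, although TWIST1 (-0.22, adjusted p = 0.0149) and VIM (0.19, adjusted p = 0.0172) were called in the block without pair 1, a fit of 4 libraries. Over all genes, 571 lower and 234 higher calls became 871 and 475 with DESeq2, 2143 and 2023 with the block, 1739 and 1536 without both libraries numbered 1, and 76 and 6 under the stricter threshold. A mean count of at least 50 left 331 lower calls. Leaving out single libraries gave 281 to 606 lower and 49 to 259 higher calls. Depth limits CDH1, which was under 3 counts in each library.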
